A study of Mus musculus with 19 samples.

Results

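The 10 genes described here were antiviral effectors of the type I interferon response: Ifit1, Ifit2, Ifit3, Isg15, Bst2, Oasl1, Oasl2, Rsad2, Usp18 and Ddx58. The choice was by name, with earlier results of these data known. The genes were matched by Ensembl identifier to 2 tables of normalised RNA-seq counts from mouse brain, which hold 17340 genes between them. All 10 were in the table of sorted cells (13783 genes). Of the 10, 9 were in the hippocampus table (15634 genes), where Oasl1 was not analysed. A table value is a library's read count scaled to make libraries comparable, and it is called a normalised count below.

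Type I interferons signal through a receptor on nearly every cell and activate transcription factors that bind interferon-stimulated response elements in gene promoters. The genes switched on in this way include proteins that bind viral RNA, restrict virus release or block viral polymerases, and others that damp the response again. In the brain, microglia (the resident macrophages) and macrophages that enter from the blood both express such genes, and interferon gamma can raise many of them as well.

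Chronic graft-versus-host disease (GVHD) follows when transplanted donor T cells attack the recipient. Every recipient mouse had received 1100 cGy of total-body irradiation in split doses and 5000000 marrow cells depleted of T cells. Mice of the GVHD groups were also given 500000 splenic T cells, and mice of the control groups, called TCD for T-cell-depleted, were not. Strain, genotype, sex and age are not given in the sources used here. At day 70, sorted cells gave 6 libraries of donor-derived cells labelled as marrow-derived macrophages from GVHD brain (GVHD donor), 4 of host microglia from GVHD brain (GVHD host) and 3 of host microglia from TCD brain (TCD host). At day 80, whole hippocampus gave 3 GVHD and 3 TCD libraries. The markers used for the sort are not stated. Whether each library came from a separate animal is not stated either, so p-values measure the spread between libraries.

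The sorted libraries carried 1 of 2 numbers in their titles, API_183 or API_197, whose meaning is not given. Library 1 of each sorted group was API_183 and the others were API_197. The description of TCD host library 1 reads Syn where those of TCD host libraries 2 and 3 read TCD, so its transplant is uncertain, and the number of effectors that passed was also computed without it. Estimated reads per library ran between 7901521 and 35844776 in the sorted cells and between 16673614 and 18546936 in hippocampus. In sums of markers, the sorted groups differed in the direction of their labels. The summed normalised count of 8 marrow-derived macrophage markers was 73684 to 103557 in GVHD donor cells, against 3285 to 6616 in GVHD host and 2004 to 3899 in TCD host microglia. Apoe and Lyz2 made up nearly all of that sum in donor cells. The sum of 10 microglia markers was 12738 to 18528 in GVHD donor cells, against 44003 to 53158 in GVHD host and 51109 to 64209 in TCD host microglia. Fcrls alone of the 10 had a higher mean in GVHD donor than in GVHD host cells, at 1633 against 904.7. Its mean in TCD host cells was 2049.

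Several of the genes are neighbours in the genome (GENCODE M21 on GRCm38). On the plus strand of chromosome 19 lie Ifit2 (chr19:34550694-34576419), Ifit3 (chr19:34583531-34588731) and Ifit1 (chr19:34640871-34650009), and on the plus strand of chromosome 5 lie Oasl2 (chr5:114896936-114912234) and Oasl1 (chr5:114923240-114937915). Chromosome 4 holds Isg15 (chr4:156199424-156200818) and Ddx58 (chr4:40203773-40239828), both on the minus strand. Bst2 (chr8:71534255-71537456) and Rsad2 (chr12:26442746-26456452) are also on the minus strand, and Usp18 (chr6:121245906-121270917) is on the plus strand.

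Several of the promoters carry letters that match the core of the interferon-stimulated response element. RefSeq promoter windows (GRCm38.p6, 250 bases before to 50 after the annotated start) were matched for 9 of the 10 genes; Usp18 was not matched. That core, which is GAAA, any 2 bases and GAAA again on either strand, was found in 6 of those 9: Ifit1, Ifit3, Isg15, Bst2, Rsad2 and Ddx58. It was found in 3.44% of all 32851 windows of that length. The gamma-activated site, TTC and GAA with any 3 bases between them, which reads the same on both strands, was found in Bst2 and Ifit2, against 8.3% of all windows. In Bst2 its last bases overlapped the first core. A match is a description of letters and not of binding, and a window without one says nothing of elements elsewhere. The stretch from 180 to 21 bases before the start is shown for 5 genes with the core and for Oasl1, which had no match but one of the widest differences between cell types below; each is written 5′ to 3′ along the gene's strand, with cores in capitals.
Isg15 (chr4:156200839-156200998, minus strand): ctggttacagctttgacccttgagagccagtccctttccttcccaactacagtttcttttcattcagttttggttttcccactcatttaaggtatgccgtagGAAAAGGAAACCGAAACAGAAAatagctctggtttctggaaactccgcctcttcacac
Bst2 (chr8:71537493-71537652, minus strand): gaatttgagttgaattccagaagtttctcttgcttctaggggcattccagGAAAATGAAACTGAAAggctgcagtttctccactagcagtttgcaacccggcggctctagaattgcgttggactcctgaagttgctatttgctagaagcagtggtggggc
Ifit1 (chr19:34640709-34640868, plus strand): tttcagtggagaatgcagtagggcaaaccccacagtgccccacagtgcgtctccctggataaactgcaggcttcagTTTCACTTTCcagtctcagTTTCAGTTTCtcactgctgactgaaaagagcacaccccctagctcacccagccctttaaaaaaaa
Ifit3 (chr19:34583349-34583508, plus strand): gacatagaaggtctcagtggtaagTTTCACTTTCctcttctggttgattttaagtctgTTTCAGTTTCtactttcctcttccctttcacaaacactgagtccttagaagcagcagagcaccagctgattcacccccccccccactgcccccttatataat
Rsad2 (chr12:26456473-26456632, minus strand): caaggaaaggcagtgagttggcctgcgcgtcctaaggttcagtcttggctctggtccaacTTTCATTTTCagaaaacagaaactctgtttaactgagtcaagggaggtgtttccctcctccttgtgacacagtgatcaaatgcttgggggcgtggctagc
Oasl1 (chr5:114923060-114923219, plus strand): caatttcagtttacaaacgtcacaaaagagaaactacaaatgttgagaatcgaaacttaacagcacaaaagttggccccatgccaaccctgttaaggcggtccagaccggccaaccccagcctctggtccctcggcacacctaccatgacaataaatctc
Isg15 carried 3 overlapping cores in a row, starting 78, 72 and 66 bases before the start. Bst2 carried 2 overlapping cores, starting 130 and 124 bases before it. Ifit1 and Ifit3 carried 2 separate cores each, all on the opposite strand, and Rsad2 carried 1.

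In GVHD brain, 4 of the 10 effectors were higher in donor-derived macrophages than in host microglia and none was lower: Bst2, Oasl1, Oasl2 and Usp18. The test was limma on log2(value + 1) with the API number as a covariate, over all 13 sorted libraries, and a gene passed at a Benjamini-Hochberg adjusted p under 0.05 over 13086 tested genes. Of all tested genes, 19.4% were higher and 19.2% lower by the same rule. Changes are given as limma's fitted log2 ratio, donor over host here. The median log2 ratio of the 10 effectors was 0.88, against 0.04 over all tested genes. The members of the Ifit family, Isg15, Rsad2 and Ddx58 did not pass. Without donor library 5, 7 of the 10 passed. The values of 3 genes, Bst2, Oasl1 and Usp18, did not overlap between the groups, against 13.3% of all tested genes with donor cells higher.

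Bst2 encodes tetherin, a membrane protein that holds budding virus particles on the cell surface. In GVHD donor macrophages its normalised count was lowest at 195, with a median of 247 and a highest value of 265, against 80.5, 72.4, 74.6 and 67.7 in the 4 GVHD host libraries. The groups were far apart, and the mean was 3.22 times as high in donor cells. Donor cells averaged 237.5 ± 26.7 and GVHD host cells 73.8 ± 5.3 (SD, n = 6 and 4), a log2 ratio of 1.67 ± 0.11 (SE, adjusted p = 1.17e-07). Bst2 also marks plasmacytoid dendritic cells in mice. Of 8 markers of that cell type, 6 were measured and summed to 182.7 to 352 in donor libraries, against 1124 to 1516 in GVHD host libraries, where Siglech, which microglia also express, made up most of the sum. Ccr9 and Klk1 were not analysed, and Ly6d averaged 0.74 in donor cells and 0.22 in GVHD host cells. Of the 6, 1 passed as higher in donor cells and 4 as lower, beside 19.4% and 19.2% of all tested genes. Smim5 was higher in donor cells, at 2.75 against 0.28 in GVHD host cells (log2 ratio 1.35 ± 0.38, adjusted p = 0.014). Siglech, Cox6a2, Pacsin1 and Tcf4 were lower, with log2 ratios of -3.08, -0.81, -1.06 and -0.28 (adjusted p = 2.43e-08, 0.000283, 0.000379 and 0.0414). The part of this cell type in the Bst2 values was not tested.

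Oasl1 and Oasl2 encode proteins related to the oligoadenylate synthetases, which sense double-stranded RNA; in mice OASL1 also restrains translation of the Irf7 message. Oasl1 was lowest at 15.8, with a median of 23.0 and a highest value of 45.8 in donor macrophages, against 15.1, 6.38, 3.63 and 4.54 in GVHD host microglia. The lowest donor library stood just above the highest host library, and the log2 ratio was 1.92 ± 0.24 (SE, adjusted p = 3.95e-05). Oasl2 ranged between 85.7 and 232 in donor macrophages, with a median of 146, against 108, 65.7, 39.3 and 43.1 in GVHD host microglia. Here the groups overlapped: GVHD host library 1 lay above donor library 5. The log2 ratio of Oasl2 was 1.33 ± 0.25 (SE, adjusted p = 0.00102).

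Isg15 encodes a ubiquitin-like protein that is attached to other proteins, and Usp18 the protease that removes it and also blocks signalling at the interferon receptor. Usp18 had normalised counts between 61.4 and 105 in donor macrophages, with a median of 89.2, against 60.9, 35.0, 28.4 and 39.8 in GVHD host microglia. Its groups stood apart by less than 1 normalised count, and its log2 ratio was 1.13 ± 0.16 (SE, adjusted p = 0.000102). Isg15 was less even: in donor macrophages it was lowest at 10.9, with a median of 23.9 and a highest value of 77.2, against 18.6, 15.1, 14.3 and 13.7 in GVHD host microglia. Donor library 5 lay below every GVHD host library, and the log2 ratio of 0.68 ± 0.39 did not pass (SE, adjusted p = 0.189). Without donor library 5 it was 0.91, with an adjusted p of 0.0405.

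Rsad2 encodes viperin, an enzyme that makes a nucleotide which stops viral RNA polymerases. It ranged between 11.9 and 68.8 in donor macrophages, with a median of 24.3, against 25.05, 11.7, 9.50 and 9.65 in GVHD host microglia. GVHD host library 1 lay above 3 of the 6 donor libraries. Its log2 ratio of 1.07 ± 0.41 missed the threshold (SE, adjusted p = 0.0581), and it passed without GVHD host library 1 (1.42, adjusted p = 0.02), without donor library 5 (1.29, adjusted p = 0.0128) and in the API_197 libraries alone (1.43, adjusted p = 0.0279).

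The Ifit genes encode proteins that bind foreign RNA and block its translation, and Ddx58 encodes RIG-I, a helicase that senses viral RNA in the cytosol. Ifit2 ranged between 73.2 and 294 in donor macrophages, with a median of 149, against 199.7, 128, 86.4 and 99.7 in GVHD host microglia. Ifit3 ranged between 72.8 and 208 in donor macrophages, with a median of 137, against 189.5, 135, 82.3 and 92.3 in GVHD host microglia. For both genes every GVHD host value lay within the range of the donor libraries, with log2 ratios of 0.26 ± 0.31 for Ifit2 and 0.16 ± 0.26 for Ifit3 (SE, adjusted p = 0.543 and 0.67). The sign of Ifit3 turned without donor library 3, at -0.0004. Ifit1 averaged 36.7 ± 25.2 in donor macrophages and 24.5 ± 12.5 in GVHD host microglia (SD, n = 6 and 4), and its log2 ratio was 0.48 ± 0.42 (SE, adjusted p = 0.403). Ddx58 averaged 45.1 ± 9.2 in donor macrophages and 37.6 ± 6.2 in GVHD host microglia (SD, n = 6 and 4), and its log2 ratio was 0.27 ± 0.15 (SE, adjusted p = 0.181). Ifit3 and its neighbour Ifit3b are 98.0% identical over 1697 aligned bases of their transcripts, so the split of reads between them is uncertain; with both summed the log2 ratio was 0.21.

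**Figure D1:**
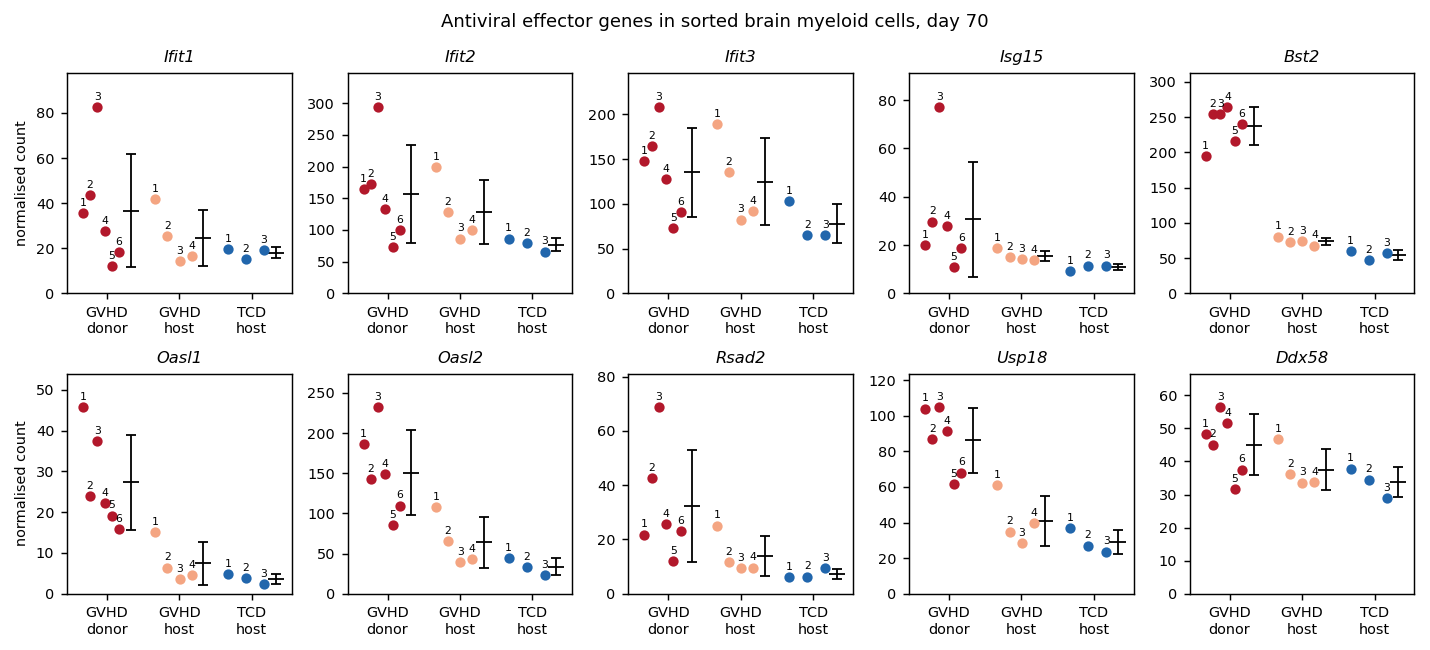
Normalised count (linear axis) of each effector in every sorted library, by group, with the library number above each point and the mean ± SD beside the points (6 GVHD donor, 4 GVHD host and 3 TCD host libraries). Bst2 separates the donor cells from both host groups with little spread (195 to 265 in donors), whereas the Ifit genes, Isg15 and Rsad2 spread widely among donor libraries and overlap the GVHD host values.

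The values can also be set side by side in the same libraries by number. The descriptions number the sorted libraries, and 4 numbers are shared by a donor and a GVHD host library of the same API number; the labels do not say that a number marks a mouse. Donor cells were higher in 4 of 4 such pairs for Bst2, Oasl1, Oasl2 and Usp18, with ratios of 2.43 to 3.54 for Bst2 and 3.03 to 5.86 for Oasl1. Isg15, Rsad2 and Ddx58 were higher in donor cells in 3 of 4 pairs, Ifit1 in 2 of 4, and Ifit2 and Ifit3 in 1 of 4. The pair in which Ifit2 and Ifit3 were higher was donor library 3 with GVHD host library 2, in which all 10 genes were higher in donor cells, with a median ratio of 3.39. In the API_183 pair, Ifit1, Ifit2, Ifit3 and Rsad2 were lower in donor cells, at ratios of 0.853, 0.826, 0.778 and 0.868.

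In host microglia, none of the 10 effectors passed the test between GVHD and TCD brain. By the same rule 0.0917% of all tested genes were higher and 0.0153% lower. All 10 log2 ratios were positive, with a median of 0.59 against -0.03 over all tested genes. At an unadjusted p under 0.05, 5 of 10 were higher (Ifit3, Bst2, Oasl1, Oasl2 and Usp18), against 4.23% of all tested genes. The values of Isg15 and Bst2 did not overlap between the groups, as was so for 3.57% of all tested genes with GVHD host cells higher. The comparison shares its GVHD host libraries with the comparison above.

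Bst2 had 80.5, 72.4, 74.6 and 67.7 normalised counts in GVHD host microglia, against 59.7, 46.7 and 57.4 in TCD host microglia. Every GVHD host library was higher, and the log2 ratio was 0.43 ± 0.13 (SE, adjusted p = 0.338, the smallest of the 10). Oasl2 had 108, 65.7, 39.3 and 43.1 in GVHD host microglia, against 44.7, 32.9 and 23.3 in TCD host microglia. It had the widest of the 10 log2 ratios, 0.90 ± 0.30 (SE, adjusted p = 0.455), with overlap between GVHD host libraries 3 and 4 and TCD host library 1. Isg15 had 18.6, 15.1, 14.3 and 13.7 in GVHD host microglia, against 9.34, 11.5 and 11.5 in TCD host microglia, and a log2 ratio of 0.47 ± 0.46 (SE, adjusted p = 0.895). The remaining 7 genes had log2 ratios between 0.17 for Ddx58 and 0.78 for Oasl1.

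GVHD host library 1 was the highest of its group for 10 of 10 genes, and the median log2 ratio was 0.37 without it. In the API_197 libraries alone, which leave out this library and TCD host library 1, the median was 0.44, and no gene passed there or without TCD host library 1 alone. In the single API_183 library of each group, GVHD host values were 1.24 to 4.08 times the TCD host values, with a median ratio of 2.06 and no replicate check. T cell markers were also highest in this library: 7 of 9 were measured and summed to 30.8, against 7.38 to 9.85 in the other GVHD host libraries. The API_183 library had the highest sum in the other sorted groups too. It was 15.9 in TCD host library 1, against 5.50 and 7.25 in the other TCD host libraries. In GVHD donor library 1 it was 38.3, against 3.36 to 14.2 in the other donor libraries. The part of T cell markers in the result was not tested.

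Against TCD host microglia, GVHD donor macrophages were higher for 7 of the 10 effectors and lower for none. By the same rule 18.4% of all tested genes were higher and 18.6% lower, and the comparison shares libraries with both of those above. The 4 genes that passed against GVHD host cells passed here too, and Rsad2, Ifit2 and Ifit3 were added. The median log2 ratio was 1.39, against -0.01 over all tested genes. The groups did not overlap for Bst2, Oasl1, Oasl2, Rsad2 and Usp18, against 14.4% of all tested genes with donor cells higher.

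Oasl1 had the widest difference, with normalised counts of 15.8 to 45.8 and a median of 23.0 in donor macrophages, against 4.89, 3.8 and 2.42 in TCD host microglia, a log2 ratio of 2.70 ± 0.27 (SE, adjusted p = 5.07e-06). The log2 ratio was 2.23 ± 0.28 for Oasl2 (SE, adjusted p = 3.97e-05), 2.10 ± 0.12 for Bst2 (SE, adjusted p = 5.08e-08) and 1.62 ± 0.18 for Usp18 (SE, adjusted p = 1.14e-05). Rsad2 ranged between 11.9 and 68.8 in donor macrophages, with a median of 24.3, against 6.14, 6.28 and 9.54 in TCD host microglia, and its log2 ratio was 1.84 ± 0.46 (SE, adjusted p = 0.00663). These 5 genes passed in each of 28 other settings, among them every fit that left out 1 library, TCD host library 1 included.

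Ifit2 had 86.5, 79.0 and 65.8 normalised counts in TCD host microglia, and donor macrophages lay between 73.2 and 294; its log2 ratio was 0.96 ± 0.34 (SE, adjusted p = 0.0438). Ifit3 had 103, 65.2 and 65.3 in TCD host microglia, and donor macrophages lay between 72.8 and 208; its log2 ratio was 0.84 ± 0.29 (SE, adjusted p = 0.0393). Both calls were near the threshold and were lost without TCD host library 1, which left 5 genes, among other settings. Isg15 (1.15 ± 0.43), Ddx58 (0.43 ± 0.17) and Ifit1 (0.83 ± 0.47) did not pass (SE, adjusted p = 0.0526, 0.0565 and 0.194). Isg15 passed both without donor library 3, at 0.86 (adjusted p = 0.0295), and without donor library 5, at 1.37 (adjusted p = 0.00836).

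**Figure D2:**
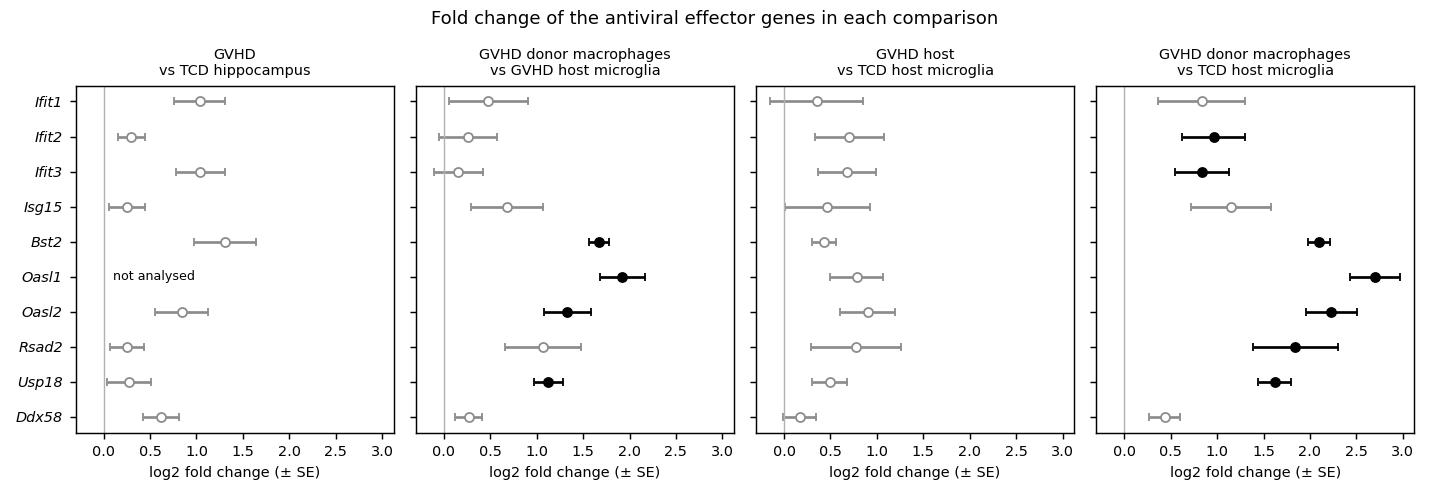
Log2 fold change (limma, on log2(value + 1)) of each effector in each comparison, with bars of ± 1 SE; filled points passed at an adjusted p under 0.05. Every estimate lies above 0, and filled points occur in the comparisons with donor macrophages, where Oasl1 reaches 2.70 against TCD host microglia.

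Most of the effectors shared their highest and lowest donor libraries. Donor library 3 was the highest of the 6 for 8 of 10 genes and donor library 5 the lowest for 8 of 10, with summed normalised counts of 1417 and 595. Ifit1 differed 6.77-fold between the highest and lowest donor library, Isg15 7.10-fold and Rsad2 5.80-fold, against 1.36-fold for Bst2 and 1.71-fold for Usp18. The SD of log2(value + 1) among donor libraries was 0.94 for Ifit1 and 0.17 for Bst2, against a median of 0.29 over all tested genes. The sum of conventional dendritic cell markers followed the same extremes. Cd209a weighed most in it, with a donor mean of 63.2 ± 59.4 (SD, n = 6), against 3.64 to 7.26 for the other markers. All 5 were measured, and they summed to 183.2 in donor library 3 and 21.8 in donor library 5, with 44.3 to 139 in the other donor libraries and 5.86 to 19.0 in all host libraries. The sum of the marrow-derived macrophage markers ran the other way, at 73684 in donor library 3 and 103557 in donor library 5, the lowest and highest of the 6. Nearly all of that sum was Apoe and Lyz2, so it says little of the other markers. Neutrophil markers, 7 of 10 measured, summed to 608 in donor library 1 and to 19.8 to 130 in the other donor libraries. The part of these cell types in the spread was not tested.

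**Figure D3:**
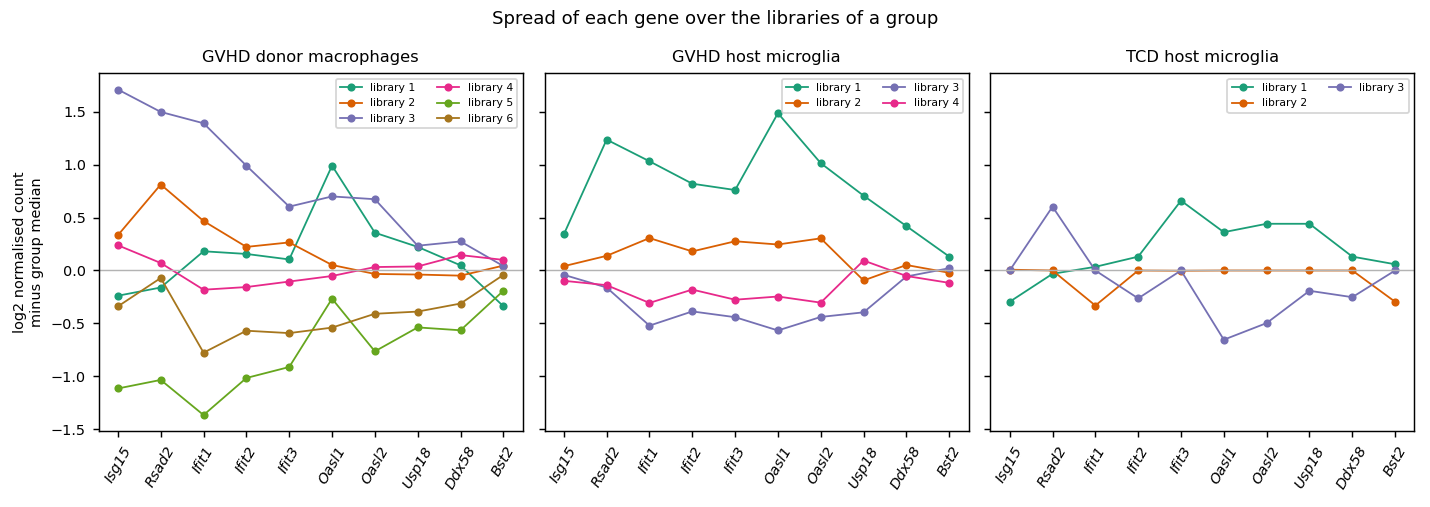
Log2 normalised count of each effector in each sorted library minus the median of its group (y axis, log2 units), with 1 line per library and 1 panel per group (6 GVHD donor, 4 GVHD host and 3 TCD host libraries). Donor library 3 and GVHD host library 1 stand highest for 8 and 10 of 10 genes, and the lines draw together at Bst2.

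Scaled per kilobase of exon, Bst2 and Ifit3 were the most abundant effectors in each of the 5 groups. In donor macrophages Bst2 stood at 263 ± 30 normalised counts per kilobase, apart from Ifit3 at 77.5 ± 28.4 (SD, n = 6). Isg15 (40.6), Ifit2 (39.8), Usp18 (30.9), Oasl2 (23.7), Ifit1 (13.8), Oasl1 (10.5), Rsad2 (7.45) and Ddx58 (6.39) followed, each overlapping the next in its range over libraries. The length used was the union of all annotated exons, on which this order depends. For Oasl2 it was 6374 bases, against 3123 in its longest transcript. In GVHD host microglia Bst2 stood at 81.7 ± 5.9 and Ifit3 at 71.6 ± 28.0 (SD, n = 4), and the ranges of the 2 genes overlapped, as they also did in TCD host microglia at 60.5 ± 7.7 and 44.6 ± 12.6 (SD, n = 3). Oasl1 had the lowest mean of the 10 in both host groups, at 2.84 ± 2.01 in GVHD and 1.42 ± 0.48 per kilobase in TCD (SD, n = 4 and 3), and its range overlapped that of Rsad2, the next gene, in both.

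In whole hippocampus, none of the 9 measured effectors passed the test between GVHD and TCD mice. By the same rule, applied to 14404 tested genes without a covariate, 0.319% of all genes were higher and 0.160% lower. All 9 log2 ratios were positive, with a median of 0.62, against 0.00 over all tested genes. At an unadjusted p under 0.05, 5 of 9 were higher (Ifit1, Ifit3, Bst2, Oasl2 and Ddx58), against 7.85% of all tested genes. The groups did not overlap for Ifit1, Ifit3, Bst2 and Ddx58, against 10.8% of all tested genes with GVHD higher. In these bulk tissue libraries, more cells that express a gene and more RNA per cell cannot be told apart.

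Bst2 had 11.8, 12.9 and 17.1 normalised counts in GVHD hippocampus, against 6.51, 7.66 and 2.26 in TCD hippocampus. Each GVHD library was higher, and the log2 ratio was 1.31 ± 0.33 (SE, adjusted p = 0.113). Ifit3 had 21.8, 16.4 and 22.9 in GVHD, against 9.06, 14.4 and 6.02 in TCD, and a log2 ratio of 1.04 ± 0.26 (SE, adjusted p = 0.109). With Ifit3b added, that value was 0.80. Ifit1 had 8.32, 5.68 and 10.9 in GVHD, against 3.66, 4.87 and 2.14 in TCD, and a log2 ratio of 1.04 ± 0.27 (SE, adjusted p = 0.121).

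Ddx58 had 12.3, 9.20 and 13.1 normalised counts in GVHD hippocampus, against 8.14, 8.20 and 5.26 in TCD hippocampus, and a log2 ratio of 0.62 ± 0.19 (SE, adjusted p = 0.163). Oasl2 had 13.5, 7.38 and 18.1 in GVHD, against 7.04, 7.54 and 4.83 in TCD, so that GVHD library 2 lay within the TCD range. Ifit2 averaged 13.9 ± 1.7 in GVHD and 11.2 ± 2.0 in TCD (SD, n = 3 each) with overlap. Isg15, Rsad2 and Usp18 had few reads in these libraries, an estimated 24 to 51 reads in GVHD and 13 to 33 in TCD libraries, and had log2 ratios of 0.25 ± 0.19, 0.25 ± 0.18 and 0.27 ± 0.24 (SE, adjusted p = 0.541, 0.514 and 0.606).

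**Figure D4:**
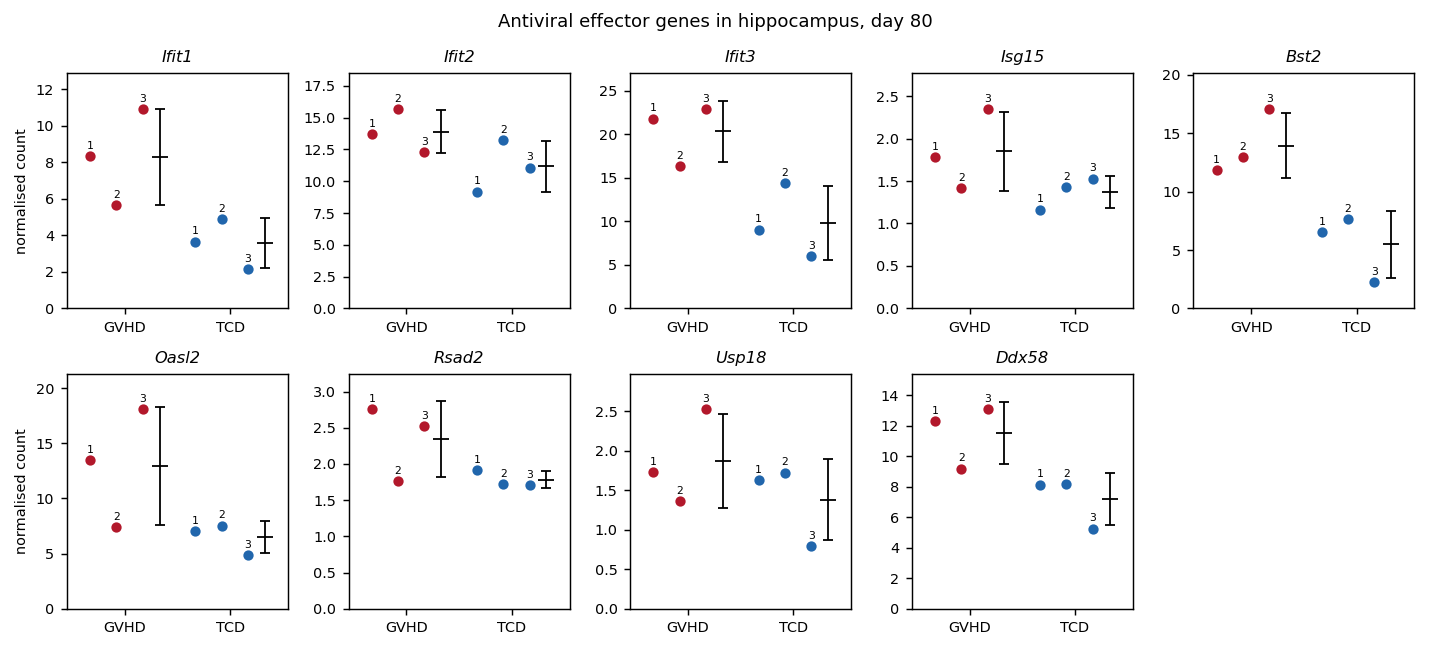
Normalised count (linear axis) of the 9 measured effectors in each hippocampus library, with the library number above each point and the mean ± SD beside the points (3 GVHD and 3 TCD libraries). GVHD library 2 is the lowest GVHD library and TCD library 2 the highest TCD library for 7 of 9 genes each, and Bst2 separates the groups (11.8 to 17.1 in GVHD, 2.26 to 7.66 in TCD).

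The order of the libraries was shared among the effectors. GVHD library 3 was the highest of its group and GVHD library 2 the lowest for 7 of 9 genes. In TCD, library 2 was the highest for 7 of 9 genes. Choroid plexus markers had the same order in GVHD but not in TCD. All 12 were measured and 11 passed as higher in GVHD, beside 0.319% of all tested genes. They summed to 3316, 1092 and 3830 in GVHD libraries 1, 2 and 3, against 112, 46.7 and 31.2 in TCD libraries 1, 2 and 3. The 10 microglia markers also had that order in GVHD, with sums of 287, 226 and 308 in GVHD libraries 1, 2 and 3, against 330.2, 304 and 274 in TCD libraries, and none passed. The 7 hippocampal neuron markers summed to 5723 to 5815 in GVHD, against 6446 to 8793 in TCD, with none passing. The 8 markers of marrow-derived macrophages, of which Apoe is also made by astrocytes, summed to 1670 to 2944 in GVHD, against 1423 to 2006 in TCD. Apoe made up most of these sums, with means of 2018 in GVHD and 1656 in TCD. Of 7 such markers tested, 6 had positive log2 ratios, with a median of 0.81 over the 7, and none passed. The widest was that of Lyz2, at 112.2 against 24.8 (log2 ratio 2.08 ± 0.62, adjusted p = 0.154). Of 9 T cell markers, 2 were measured and summed to 2.29 to 4.37 in GVHD, against 1.22 to 1.43 in TCD. The part of these cell types in the effector values was not tested.

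Other genes of the response were taken from lists chosen with earlier results of these data known. Of 37 further interferon effectors tested in sorted cells, 14 were higher and 2 lower in donor macrophages than in GVHD host microglia, beside 19.4% and 19.2% of all tested genes, with a median log2 ratio of 0.50. Those with the smallest p were Oas1g (2.39 ± 0.20, adjusted p = 1.21e-06), Slfn5 (2.52 ± 0.26, adjusted p = 6.37e-06), Oas1a (1.52 ± 0.18, adjusted p = 2.61e-05) and Oas2 (1.66 ± 0.25, adjusted p = 0.000174). Oas1a, Oas1g and Oas2 are oligoadenylate synthetases, and Oas1a and Oas1g are close copies, so that the reads of these copies may be split wrongly. Against TCD host microglia 22 of 37 were higher in donor macrophages and none lower, beside 18.4% and 18.6% of all tested genes. None of the 37 passed between GVHD and TCD host microglia, where the smallest p was that of Ifi44 (1.69 ± 0.47, adjusted p = 0.264), and none of 27 tested passed in hippocampus, where 24 were positive with a median of 0.42.

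Of 7 genes reported here that carry or amplify the interferon signal, 5 were higher and 1 lower in donor macrophages than in GVHD host microglia. The shares of all tested genes were 19.4% higher and 19.2% lower. Ifnar1, a chain of the type I receptor, had a mean of 490.1 in donor macrophages and 130.5 in GVHD host microglia, a log2 ratio of 1.98 ± 0.11 (SE, adjusted p = 3.8e-08). Irf7, which amplifies interferon production, averaged 99.6 in donor macrophages and 24.9 in GVHD host microglia, with a log2 ratio of 2.00 ± 0.29 (SE, adjusted p = 0.000115). Stat2 (0.85), Irf9 (0.41) and the other chain of the receptor, Ifnar2 (0.35), were also higher. The receptor kinase Jak1 was lower (-0.32 ± 0.08, adjusted p = 0.00535), and the kinase Tyk2 did not pass (1.14 ± 0.42, adjusted p = 0.0505). Of 9 RNA and DNA sensors other than Ddx58, 3 were higher and 4 lower, beside the same 19.4% and 19.2% of all tested genes. Tlr3, the endosomal sensor of double-stranded RNA, was lower in donor macrophages at 39.5 against 204.9 in GVHD host microglia (log2 ratio -2.33 ± 0.12, adjusted p = 2.34e-08). Tmem173, which encodes the DNA-sensing adaptor STING, was lower as well (-1.38 ± 0.10, adjusted p = 2.64e-07), as was Tlr9 (-1.42 ± 0.22, adjusted p = 0.000189), and Trim25, a ubiquitin ligase that acts with RIG-I, was higher (1.71 ± 0.17, adjusted p = 4e-06).

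The list for the ISG15 system held 5 genes: Isg15 and Usp18, already counted above, with Uba7, Ube2l6 and Herc6. Of these, 2 were higher in donor macrophages than in GVHD host microglia (Usp18 and the activating enzyme Uba7, 0.35 ± 0.10, adjusted p = 0.0153) and 1 was lower, the ligase Herc6 (-0.46 ± 0.16, adjusted p = 0.0416), beside 19.4% and 19.2% of all tested genes. Against TCD host microglia, donor macrophages were higher for 4 of the 9 sensors and lower for 4, and higher for 3 of the 5 genes of the ISG15 system and lower for none, beside 18.4% and 18.6% of all tested genes. Between GVHD and TCD host microglia and in hippocampus, no gene of the sensor and ISG15 lists passed. The 8 interferon genes listed were not analysed in either table.

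The genes with the profile most like the mean of the effectors were found by the root mean square difference of standardised log2 profiles, in SD units. Over the 13 sorted libraries they were Fpr2 (0.175), Rtp4 (0.208), Psme2b (0.223), Ifi209 (0.253) and Pkp3 (0.275), against a median of 1.38 over all tested genes. Among the effectors themselves Oasl2 was nearest to that mean at 0.262 and Bst2 farthest at 0.624. Over the 6 hippocampus libraries the nearest were Lbp (0.107), Mr1 (0.115), Bmi1 (0.118), Rsph4a (0.121) and Hist2h2aa1 (0.132), and 217 genes outside the set were nearer than the median effector, as were 51 over the sorted libraries.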

How the data were processed

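RNA was sequenced from sorted brain myeloid cells and hippocampus. Per the submitters' processing notes the tools were cutadapt 1.9, STAR 2.5.2a and RSEM 1.2.30 with GRCm38. The authors deposited normalised counts, a signal on a common scale rather than raw reads; each library's values summed to 890564.5 to 1090630.5 in sorted cells and 982114.4 to 1078635.6 in hippocampus, per the file headers 1 column a library. Each library's smallest step was taken as 1 read, which gave the estimated reads. Of the values, 69.2% to 83.9% were whole multiples of that step (tolerance 0.02 of a step), so the main fit used no count test. The alternative with voom weights was run on the estimated reads. Genes were named, located and measured for exon length from the GENCODE M21 annotation of GRCm38.

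A gene was tested where 3 or more libraries of its table reached a value of 1, with limma 3.58.1 (R 4.3.3) on log2(value + 1) with a mean-variance trend, two-sided, with Benjamini-Hochberg adjustment over all tested genes. Fold changes are on that scale, which understates changes of low genes. Every effector was named by rule, with up to 4 genes of the smallest p per list and comparison and the 5 most similar profiles. 1 gene of the interferon signal list is not reported here. Members and lists were chosen with earlier results of these data known. The authors' normalisation method is not given in the sources used here. Libraries with same-numbered titles showed no sign of pairing. Their correlations of deviations were -0.183 to -0.040 in hippocampus and -0.227 to 0.177 in the API_197 sorted libraries. API_197 libraries of different groups and title numbers had -0.336 to 0.308. In the API_197 libraries, donor and GVHD host libraries with the same description number had correlations of 0.254 to 0.308 in 3 pairs. Those with different numbers had -0.336 to 0.290. The API_183 pair, which also shares its title number, had 0.394 over both API numbers. GVHD donor library 1 and TCD host library 1, also API_183, had 0.585 there. These values do not settle whether a shared description number marks a pair. A block on the description numbers is an alternative, as are other pseudocounts, filters, scalings, variance models and a GC correction. Further alternatives are the API_197 libraries alone, only the groups compared, and leaving out each library.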

Additional observations from a re-analysis of the deposited data

Results flagged for a closer look

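In the GVHD donor and GVHD host groups, 20 combinations of gene and group were examined for a single library far from the others, and 2 stood out. Chance alone gives about 1 such group in 20. Isg15 in GVHD donor library 3 was 77.2 normalised counts, against 29.7 in the next donor library; that gap was 0.716 of the range over 6 libraries. Rsad2 in GVHD host library 1 was 25.05 normalised counts, against 11.7 in the next GVHD host library; that gap was 0.859 of the range over 4 libraries.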

How the results depend on the processing

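Between GVHD donor macrophages and GVHD host microglia the count of effectors that passed was 4 of 10 and lay between 4 and 7 when 1 library was left out, with 7 without donor library 5. It was 7 with the replicate block on title numbers, which showed no sign of pairing in the API_197 libraries, and 8 with that block and the GC correction. The block on description numbers in the GVHD libraries, chosen after seeing the data, gave 4 and changed no call. Bst2, Oasl1, Oasl2 and Usp18 passed in all 29 alternatives run. Ifit3 turned sign, to -0.0547 with voom weights and -0.0004 without donor library 3; without 1 library its log2 ratio lay between -0.0004 and 0.2937. Against TCD host microglia the count was 7, between 5 and 9 when 1 library was left out, 10 with the title block and 6 with the description block. GVHD and TCD libraries came from different mice, so a number shared between them cannot mark the same mouse. Ifit2 passed in 12 of 28 alternatives (adjusted p 0.00493 to 0.13) and Ifit3 in 19 of 29 (0.0065 to 0.116). The count was 0 in every alternative run for hippocampus and for host microglia of GVHD against TCD mice, blocks and voom weights included, and 0 when 1 library was left out. A stricter filter (at least 5) left 6 effectors tested in hippocampus. Isg15, Rsad2 and Usp18 rest on few reads in hippocampus. Counts over gene lists and of values that do not overlap were not recomputed without single libraries. The causes of these changes were not tested.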
